A study of Mus musculus with 8 samples.

Results

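The regions described here are the compartment borders of mouse embryonic stem cells that stood at the same place in all 8 Hi-C libraries of the series. A border is the shared edge of 2 neighbouring 100-kb bins whose compartment scores have opposite signs, positive in the A compartment and negative in the B compartment. A border was called fixed where the sign changed in the same order in every library. Of 23920 neighbouring autosomal bin pairs scored in all libraries, 382 met this rule (1.60%), 197 running from A to B along the chromosome and 185 from B to A. Only 1 further pair changed sign in all 8 libraries without keeping one order. The members were thus selected on the signs of the scores of all 8 libraries, which also fixes part of their steepness, so border numbers and steepness levels are given as a description and carry no test.

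Hi-C joins DNA ends that lie close together in the nucleus and counts the joined pairs. The first eigenvector of the contact map of a chromosome separates a gene-rich, early-replicating and mostly transcribed A compartment from a B compartment that is gene-poor, late-replicating and often held at the nuclear periphery. H3K9me2, a mark of silent chromatin written largely by the enzymes G9a and GLP, covers much of the B compartment, and SETDB1 and SUV39H1/2 are the other main H3K9 methyltransferases. Borders are where these 2 kinds of chromatin meet, and each is located here only to within the 100-kb bin size.

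The 8 libraries form 8 groups of 1 library each. Setdb1 WT, the #33-6 Setdb1 conditional knockout line without induction, was left untreated or, as Setdb1 WT + UNC, given 2 µM UNC0642, an inhibitor of G9a and GLP, for 3 days. Setdb1 KO was the same line after 800 nM 4-OHT for 5 days, and Setdb1 KO + UNC received 4-OHT for 2 days and then UNC0642 for 3 days. Suv39h WT (clone ADF1-26) and Suv39h DKO (clone ADF157, lacking Suv39h1 and Suv39h2) were each untreated or treated with the same UNC0642 dose and time. Each Suv39h genotype is represented by 1 clone, so an effect of the clone and one of the genotype cannot be told apart, and the same holds for 4-OHT exposure and loss of SETDB1 in Setdb1 KO. Setdb1 KO and Setdb1 KO + UNC differ in days of 4-OHT as well as in UNC0642, and these cannot be told apart in this pair either. Although the methods mention a repeat of the experiment, whether a file is 1 run or a pool is not given in the sources used here. No group has a replicate of its own, and the residual spread in every test below came from how alike the UNC0642 differences were across the 4 backgrounds. The comparisons share libraries with each other. The files hold scores only, so no depth could be computed from them, and read numbers listed elsewhere were not used here. The score has no physical unit, and because it is an eigenvector of fixed length, its entries are larger on chromosomes with fewer bins. The stem cell identity could be checked only through where marker genes lay: all 15 core pluripotency genes looked up, among them Pou5f1, Sox2 and Esrrb, were in bins with a positive score in every library. So were 11 of 14 lineage regulators, such as Gata4 and Sox17, so this position does not separate marker genes of stem cells from those of other cells.

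The fixed borders separated stretches that differ in their genes and sequence, and promoters from both sides of the steepest ones are shown to make this visible. RefSeq promoter entries (GRCm38.p6, the same coordinates as the mm10 build of the files; 300 bases each, read 5′ to 3′ along the gene) were at hand for both sides at 3 of the 5 steepest borders. Capitals mark the dinucleotide CG, which reads the same on both strands and is concentrated in the CpG islands of widely used promoters. At the border of chr19:38900001-39100000 the A-side gene was Hells (chr19:38930740-38931039, plus strand), which encodes a chromatin remodeller needed for DNA methylation, and the B-side gene was Cyp2c55 (chr19:39006769-39007068, plus strand), a cytochrome P450 gene.
Hells promoter: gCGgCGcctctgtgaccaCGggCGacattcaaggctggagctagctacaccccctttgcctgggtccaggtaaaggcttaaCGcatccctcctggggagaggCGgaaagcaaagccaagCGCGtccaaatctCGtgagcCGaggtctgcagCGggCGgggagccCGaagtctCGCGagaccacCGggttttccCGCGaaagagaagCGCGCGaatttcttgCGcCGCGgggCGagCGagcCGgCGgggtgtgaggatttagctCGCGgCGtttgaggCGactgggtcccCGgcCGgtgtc
Cyp2c55 promoter: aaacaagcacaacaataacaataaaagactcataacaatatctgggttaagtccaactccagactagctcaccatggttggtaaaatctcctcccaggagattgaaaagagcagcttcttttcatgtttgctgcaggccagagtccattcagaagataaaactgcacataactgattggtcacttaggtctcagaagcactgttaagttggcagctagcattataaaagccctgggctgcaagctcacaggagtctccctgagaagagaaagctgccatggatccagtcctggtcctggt
The Hells promoter held 34 CG dinucleotides and the Cyp2c55 promoter 0. At the steepest border, chr10:81600001-81800000, the nearest starts were those of Gm10778 on the A side (chr10:81648819-81649118, plus strand) and Zfp433, a zinc finger gene, on the B side (chr10:81704575-81704874, plus strand).
Gm10778 promoter: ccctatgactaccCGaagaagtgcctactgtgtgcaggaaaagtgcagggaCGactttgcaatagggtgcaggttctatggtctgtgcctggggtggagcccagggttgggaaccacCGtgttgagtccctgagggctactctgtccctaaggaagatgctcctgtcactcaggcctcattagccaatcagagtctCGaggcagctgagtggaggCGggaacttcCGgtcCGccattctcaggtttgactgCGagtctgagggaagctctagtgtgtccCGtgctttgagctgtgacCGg
Zfp433 promoter: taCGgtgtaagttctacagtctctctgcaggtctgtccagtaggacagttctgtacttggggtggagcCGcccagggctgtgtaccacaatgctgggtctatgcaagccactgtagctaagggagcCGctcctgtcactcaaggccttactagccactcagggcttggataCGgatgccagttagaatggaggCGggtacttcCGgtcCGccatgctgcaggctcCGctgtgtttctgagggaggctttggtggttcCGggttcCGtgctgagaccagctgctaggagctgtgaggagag
Here both promoters held 10. At chr14:25800001-26000000 the genes were Anxa11 on the A side (chr14:25841905-25842204, plus strand), which encodes a calcium-dependent phospholipid-binding annexin, and Plac9a on the B side (chr14:25902844-25903143, minus strand).
Anxa11 promoter: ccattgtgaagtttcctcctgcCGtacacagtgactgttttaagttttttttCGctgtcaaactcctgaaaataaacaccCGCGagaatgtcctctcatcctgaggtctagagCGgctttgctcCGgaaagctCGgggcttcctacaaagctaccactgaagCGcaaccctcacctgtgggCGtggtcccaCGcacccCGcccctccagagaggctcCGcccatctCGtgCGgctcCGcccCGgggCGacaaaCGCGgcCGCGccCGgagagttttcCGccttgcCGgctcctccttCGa
Plac9a promoter: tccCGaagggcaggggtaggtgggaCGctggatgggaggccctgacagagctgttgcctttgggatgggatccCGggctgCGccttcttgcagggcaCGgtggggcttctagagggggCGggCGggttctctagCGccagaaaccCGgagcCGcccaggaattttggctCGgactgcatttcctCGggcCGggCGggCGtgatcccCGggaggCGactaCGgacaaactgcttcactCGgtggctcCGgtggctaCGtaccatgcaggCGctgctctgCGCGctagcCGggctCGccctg
These held 25 and 26, so the contrast at the Hells border was not shared by all of the steepest borders. Over all borders, a promoter entry matched 210 of 307 nearest A-side genes and 94 of 155 nearest B-side genes, and the median number of CG was 22 on the A side and 5 on the B side. CG occurred at least once in 96.9% of all 13557 matched promoters, with a median of 16. For genes in bins that were A in all libraries the median was 19, and for those in bins that were B in all libraries it was 3.5, so border genes on each side lay near the level of the compartment they bordered. Where both sides of the same border had an entry, the A-side promoter held more CG at 39 of 66 borders, the B-side promoter at 21, and 6 were equal.

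The mean score turned from positive to negative within 1 bin at these borders, and away from them it faded on the A side but hardly on the B side. With every border turned to run from A to B, the mean score in the last A bin was between 0.0125 and 0.0160 over the 8 libraries, and in the first B bin between -0.0140 and -0.0127. On the A side it was highest in the bin before the last, at 0.0155 to 0.0181, and at 950 kb from the border it had dropped to 0.00281 to 0.00347, where only 48.0% to 51.2% of bins were positive. On the B side the mean stayed lower for longer, at -0.0122 to -0.0114 at 950 kb, where 24.9% to 26.2% of bins were positive. With zero as deposited, A-side stretches of constant sign were thus shorter than B-side ones. Among all bins, 9333 were A in all libraries and 11512 were B in all. The profile and these stretches were not recomputed with zero placed elsewhere. The A-side run of bins that were positive in all libraries was a single bin at 96 borders and at least 3 bins at 229, with a median of 300 kb. For the B side these numbers were 80 borders, 268 borders and 700 kb, and 162 borders had at least 3 bins of constant sign on both sides.

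**Figure D1:**
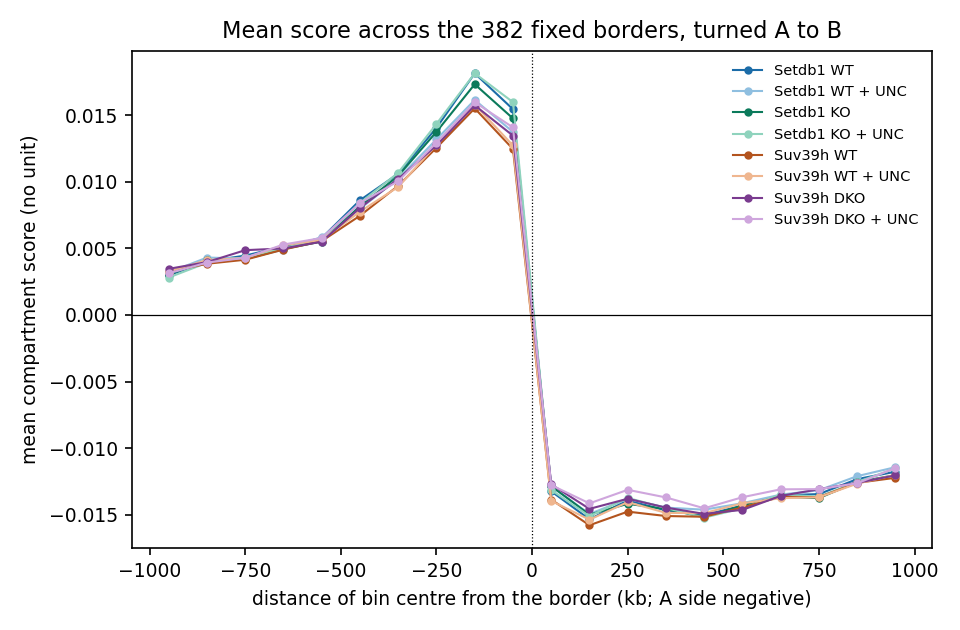
Mean compartment score (no unit) in 100-kb bins up to 1000 kb on either side of the 382 fixed borders, each turned so that the A side is to the left; each line is 1 library. The mean falls from between 0.0125 and 0.0160 in the last A bin to between -0.0140 and -0.0127 in the first B bin in all 8 libraries.

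Fixed borders made up a minority of the borders of any library. Single libraries held 1858 (Setdb1 WT + UNC) to 2110 (Setdb1 KO + UNC) borders, of which the fixed ones were 18.1% to 20.6%. In all, 4851 pairs held a border in at least 1 library, and fixed borders were 7.87% of these, while 1470 pairs held one in a single library. The number of pairs fell from 998 shared by 2 libraries to 235 shared by 6 and 215 shared by 7, and rose again to the 382 shared by all. Of the 215 pairs that lacked the border in 1 library, 167 had a border 1 bin away in that library. A sign change of 1 bin moves a border by 1 bin wherever the next bin keeps its sign, so the definition sets part of this share. Setdb1 WT + UNC was the library without the border at 38 of the 215 pairs and Setdb1 WT at 14, the highest and lowest counts.

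Which borders counted as fixed depended on where zero was set. The deposited scores average 0 on every chromosome, and the squared length of each vector, where it is short of 1, was taken to give the size of a mean removed by centring. That centring took place is inferred from the values and the sign of the mean is unknown, so it was tried both ways. With the implied mean added to every score 324 borders were fixed, 165 of them among the 382, and with it subtracted 369 were fixed, 194 of them among the 382. The 90 borders (23.6%) that were fixed with all 3 placements of zero had a median steepness of 0.0354, and the other 292 had a median of 0.0216. Members close to the limit had scores near zero. The score nearest to zero in any library was 2.34e-05, in the A bin at chr2:147000001-147100000, and the pair just outside the rule, at chromosome 18 with its edge at 32600000, missed it in Setdb1 KO by a score of 1.52e-05.

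Steepness is the absolute difference between the 2 scores at a border. Without UNC0642 its median over the fixed borders was 0.0259 for Setdb1 WT, 0.0252 for Setdb1 KO, 0.0235 for Suv39h WT and 0.0233 for Suv39h DKO. With UNC0642 the medians of the same 4 backgrounds were 0.0240, 0.0265, 0.0243 and 0.0235. The 8 medians lay within 0.00317 of each other, with an SD of 0.00119. Borders of the same libraries that were not fixed had medians between 0.0105 and 0.0120, and the absolute step over all neighbouring pairs had medians between 0.00423 and 0.00511. Since a larger step is less likely to lose its sign change, this difference is part of what the rule selects.

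**Figure D2:**
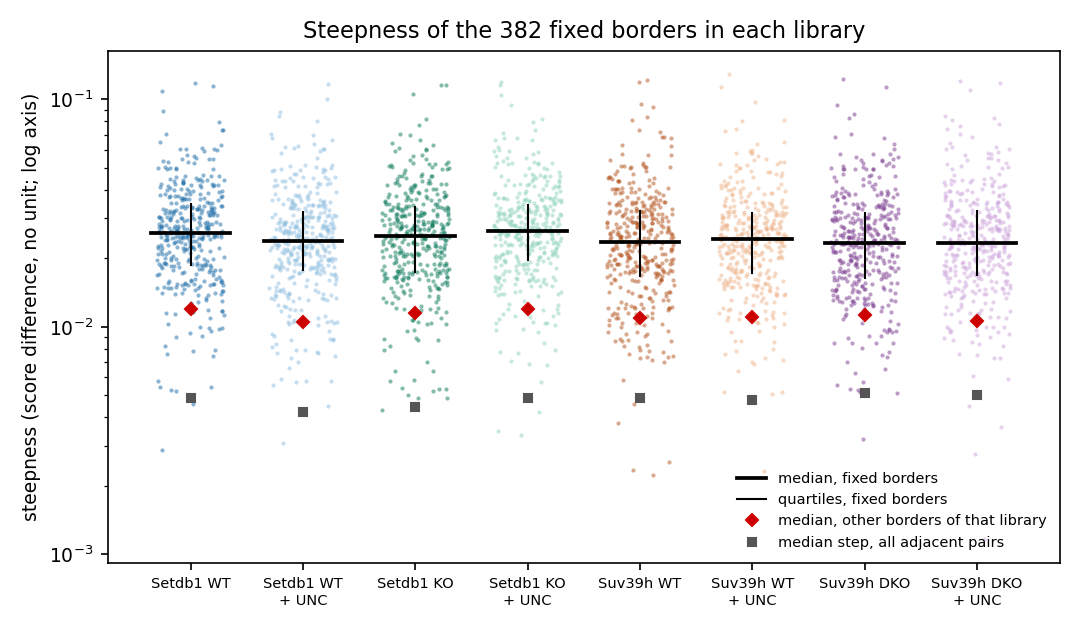
Steepness (difference of the scores of 2 neighbouring bins, no unit, log axis) of each of the 382 fixed borders in each of the 8 libraries, with medians and quartiles in black, the median of that library's other borders as a red diamond and of all neighbouring pairs as a grey square. Fixed-border medians lie between 0.0233 and 0.0265, above other borders at 0.0105 to 0.0120 and all pairs at 0.00423 to 0.00511.

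Steepness varied widely across borders and, at some of them, also between libraries. Averaged over the 8 libraries, steepness ran from 0.00449 to 0.120 with a median of 0.0242 and quartiles of 0.0180 and 0.0322. The coefficient of variation of a border over the libraries had a median of 19.0%, and its highest value exceeded its lowest by a median factor of 1.76, a 90th percentile of 3.01 and at most 12.9. Pearson's r between the steepness values of pairs of libraries was 0.844 to 0.925 over the 382 borders, a description only, since the borders were chosen in these libraries and share their chromosomes' scale. Setdb1 KO + UNC held the highest value of a border most often (82 borders) and Setdb1 WT + UNC least often (24).

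Steepness also differed between chromosomes. The median steepness of a chromosome's fixed borders was 0.0139 on chromosome 2 and 0.0490 on chromosome 19, vectors over more bins having smaller entries in general. Divided by the root-mean-square score of its chromosome in the same library, steepness had a median of 0.897 over all fixed borders (quartiles 0.676 and 1.15), and chromosome medians ran from 0.635 to 1.21. Single borders still ran from 0.204 to 4.34 on this scale. Of the 20 steepest borders, 14 were also among the 20 steepest on this relative scale, an alternative chosen after seeing the data.

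The steepest border of all lay on chromosome 10 at the edge 81700000. Untreated, its steepness was 0.118 for Setdb1 WT, 0.116 for Setdb1 KO, 0.122 for Suv39h WT and 0.123 for Suv39h DKO, and with UNC0642 the same backgrounds had 0.116, 0.116, 0.129 and 0.118. The mean was 0.120 ± 0.00470 (SD, n = 8), and the border was also the steepest after division by the chromosome's root-mean-square score (4.34). Its A side ran on for 22 bins and its B side for 3, with Zfp433 starting 4.83 kb inside the B side and no protein-coding gene crossing the edge. On chromosome 14 at the edge 25900000, between Anxa11 and Plac9a, steepness was 0.111 ± 0.00709, from 0.100 in Setdb1 WT + UNC to 0.121 in Suv39h DKO + UNC. The 4 Suv39h-line values, 0.113 to 0.121, were all above the 4 Setdb1-line values, 0.100 to 0.108. At the edge 69700000 of the same chromosome the mean was 0.0896 ± 0.00547, with R3hcc1 on the A side and Loxl2, which encodes a lysyl oxidase of the extracellular matrix, on the B side. At the Hells border on chromosome 19 it was 0.0752 ± 0.00656, and only 13th by the relative measure (1.85).

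Several of the steepest borders lay beside unknown bases or unscored bins. The third by steepness, at the end of chromosome 18 (edge 90600000, 0.0990 ± 0.0177), had a B-side bin with 97361 unknown bases and 5 DpnII sites, the restriction sites at which Hi-C fragments are cut. Of the 10 steepest borders, 5 had over 10000 unknown bases in a bin or no scored bin beyond it, against 11 of all 382. These 11 had a median steepness of 0.0599 and the rest 0.0240. The chromosome 14 borders at 25900000 and 69700000 were among them for a missing scored neighbour alone, with 0 unknown bases and 246 to 290 DpnII sites in each bin, and the chromosome 10 and chromosome 19 borders were not. Their part in these steepness values was not tested.

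At the other end, the shallowest fixed borders were a pair on chromosome 2 that enclosed a single A bin, chr2:147000001-147100000, with the starts of Xrn2, an exonuclease that ends transcription, and Nkx2-4, a homeobox gene. Steepness was 0.00498 ± 0.00188 on the Xrn2 side and 0.00449 ± 0.00182 on the Nkx2-4 side, where it ranged from 0.00116 in Suv39h DKO + UNC to 0.00698 in Suv39h WT. The next shallowest, on chromosome 4 at the edge 10300000, had no protein-coding gene start in either bin and a mean of 0.00633 ± 0.00220.

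**Figure D3:**
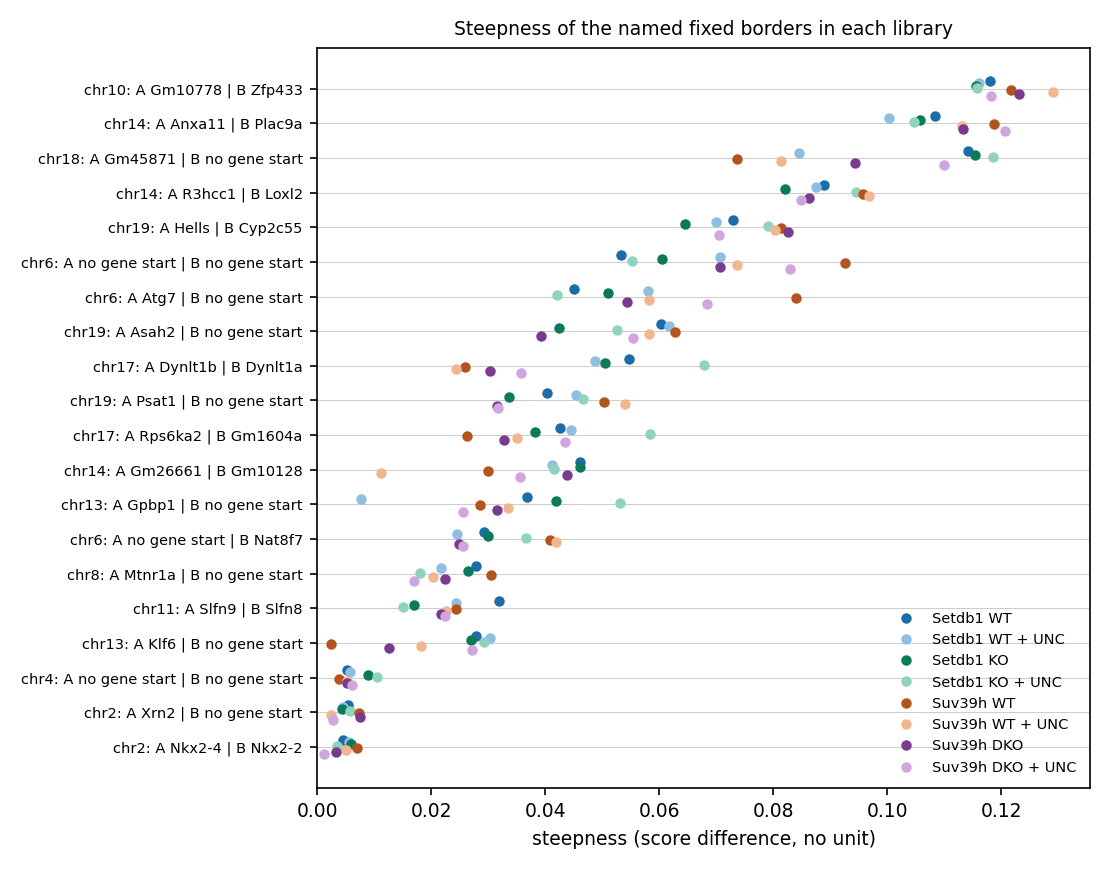
Steepness (score difference, no unit) in each of the 8 libraries of 20 fixed borders: the 5 steepest, the 3 shallowest and those with the largest differences in each comparison, named by chromosome and by the nearest gene start on the A and on the B side. The chromosome 10 border between Gm10778 and Zfp433 is highest in its mean (0.120) and the chromosome 2 border between Nkx2-4 and Nkx2-2 lowest (0.00449).

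The median steepness differed in both directions with inhibition of G9a and GLP. The UNC0642-treated library differed from the untreated one by -7.34% (Setdb1 WT), 5.11% (Setdb1 KO), 3.14% (Suv39h WT) and 0.708% (Suv39h DKO). In the Setdb1 KO pair the time with 4-OHT differed too, 5 days untreated and 2 days treated. Over 7 other ways of processing these differences were -9.25% to -6.78%, -0.175% to 9.11%, -0.993% to 3.84% and -1.56% to 5.27%, so that only the sign in Setdb1 WT did not turn. In the same order, 139, 247, 207 and 199 of the 382 borders were steeper with UNC0642. That is 36.4%, 64.7%, 54.2% and 52.1% of them, beside 43.9%, 54.8%, 49.7% and 48.9% of all neighbouring pairs. In a limma fit over all 23920 pairs with the background as a block, UNC0642 changed the step of 0 pairs at an adjusted p under 0.05 (percent called 0), and 1167 pairs (4.88%) had an unadjusted p under 0.05. Of the fixed borders 14 were steeper and 9 shallower at that unadjusted limit, 6.02% of them. With limma's trend and robust options these counts were 6 and 6, beside 1143 of all pairs. With the step taken between means of 3 bins they were 4 and 16 of 374, beside 1039 of 23738 pairs. The median change over the fixed borders was -9.07e-05, or 0.000602 without either Setdb1 WT library and -0.00049 without either Setdb1 KO library. A border steeper in all 4 treated libraries than in their controls occurred 30 times (7.85%, against 5.81% of all pairs) and a shallower one 22 times (5.76%, against 6.58%). For 9 borders all treated libraries lay above all untreated ones (2.36%, against 1.21% of all pairs), and for 2 all lay below (0.524%, against 1.20%).

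Among borders that moved the same way in all 4 backgrounds, the largest positive difference with UNC0642 was on chromosome 17 at the edge 7100000, with Rps6ka2, a gene of an S6 kinase of the MAPK pathway, on the A side. Steepness there was 0.0426 in Setdb1 WT and 0.0444 with UNC0642, 0.0381 and 0.0584 in Setdb1 KO, 0.0263 and 0.0350 in Suv39h WT, and 0.0328 and 0.0434 in Suv39h DKO. The difference was 0.0104 ± 0.00307 (limma estimate ± SE), with an adjusted p of 0.994. The Klf6 border, on chromosome 13 at 5900000 beside a Krüppel-like transcription factor gene, differed by 0.00877 ± 0.00304, with 0.00234 untreated and 0.0182 treated in Suv39h WT and 0.0279 and 0.0302 in Setdb1 WT (adjusted p = 0.994). The largest negative differences were at chromosome 14, edge 7700000 (-0.00919 ± 0.00291, or -0.00596 without either Suv39h WT library), and at the Mtnr1a border on chromosome 8 (-0.00746 ± 0.00235), beside a melatonin receptor gene. Neither passed the test, both with an adjusted p of 0.994 in limma, and the treated and untreated values of the Mtnr1a border, 0.0170 to 0.0217 and 0.0224 to 0.0304, did not overlap. With the step taken between means of 3 bins, the differences at the Rps6ka2, Klf6, chromosome 14 and Mtnr1a borders were smaller, at 0.00435, 0.00296, -0.00294 and -0.00105.

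With loss of SETDB1 the difference of the medians had opposite signs without and with UNC0642. It was -2.65% from Setdb1 WT to Setdb1 KO (4-OHT for 5 days) and 10.4% from Setdb1 WT + UNC to Setdb1 KO + UNC (4-OHT for 2 days). Over the 7 other ways of processing it was -6.97% to -3.07% and 0.669% to 11.8%, the lowest of the latter for members with absolute scores of at least 0.005. Fixed borders were steeper after loss at 166 of 382 without the inhibitor and at 250 with it, and all pairs at 46.4% and 56.1%. Limma called 0 pairs (percent called 0), with 911 (3.81%) at an unadjusted p under 0.05, and 9 fixed borders steeper and 6 shallower at that limit, 3.93% of them. These counts were 6 and 7 after quantile normalization, 4 and 1 with limma's trend and robust options, and 21 and 12 of 374 between means of 3 bins. The median change over the fixed borders was 0.000528, or 0.00184 without Setdb1 WT and -0.000656 without Setdb1 WT + UNC. Steeper borders in both pairs of libraries numbered 106 (27.7%, against 26.1% of all pairs) and shallower ones 72 (18.8%, against 23.6%). Among borders steeper in both pairs, the largest mean difference was at the Gpbp1 border on chromosome 13 (edge 111400000), beside a gene for a transcription regulator that binds GC-rich promoters. It was 0.0368 before and 0.0419 after loss without the inhibitor, and 0.00771 and 0.0531 with it, so that the mean difference of 0.0252 ± 0.00748 rested mainly on the low value of Setdb1 WT + UNC (adjusted p = 1.00 in limma). Without that library the difference was 0.00903, without Setdb1 KO + UNC it was 0.0146, and without Setdb1 WT 0.0414. The next largest was at the end of chromosome 18, with 0.0176 ± 0.00826, or -0.00167 without Setdb1 WT + UNC. Among borders shallower in both pairs, the largest mean differences were at the Asah2 border on chromosome 19, beside a neutral ceramidase gene, with -0.0134 ± 0.00477, and at chromosome 11 between Slfn9 and Slfn8, with -0.0121 ± 0.00348 (adjusted p = 1.00 for both in limma). The latter, within a cluster of interferon-inducible Schlafen genes, was 0.0318 before and 0.0170 after loss without UNC0642, and 0.0244 and 0.0150 with it. Between means of 3 bins the differences at the Gpbp1, Asah2 and Slfn borders were 0.0150, -0.00237 and -0.00740.

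Suv39h DKO and Suv39h WT had nearly equal medians. The DKO medians differed by -0.983% without and -3.31% with UNC0642 (-5.79% to 0.702% and -4.40% to -0.0875% over the 7 other ways of processing), and 190 and 187 of the 382 borders (49.7% and 49.0%, against 51.6% and 50.8% of all pairs) were steeper in the DKO clone. Limma called 0 pairs (percent called 0) with 1879 (7.86%) at an unadjusted p under 0.05, and 22 fixed borders steeper and 20 shallower, 11.0% of them, at that limit. With limma's trend and robust options these counts were 12 and 9, beside 1859 of all pairs. Between means of 3 bins they were 10 and 28 of 374, beside 2002 of 23738 pairs, so share and balance depended on the fit. Of the borders, 101 (26.4%, against 26.7% of all pairs) were steeper in both DKO libraries and 106 (27.7%, against 24.4%) shallower. The lowest p among fixed borders was at the Psat1 border on chromosome 19 (edge 15900000), beside a gene of serine synthesis. There steepness was 0.0503 in the WT clone and 0.0315 in the DKO clone without UNC0642, and 0.0539 and 0.0317 with it, a difference of -0.0205 ± 0.00382 with a limma p of 0.000286 and an adjusted p of 0.457. The Setdb1-line values, 0.0337 to 0.0466, lay between those of both clones. The border beside Nat8f7, an N-acetyltransferase gene on chromosome 6 (edge 85700000), was 0.0409 and 0.0419 in the WT clone and 0.0248 and 0.0255 in the DKO clone (adjusted p = 0.457 in limma), and Alms1, the gene mutated in Alström syndrome, spans it. Among borders steeper in both DKO libraries, the largest mean differences were at the end of chromosome 18 described above and at chromosome 14, edge 7700000, with 0.0247 ± 0.00826 and 0.0192 ± 0.00411 (adjusted p of 0.544 and 0.457 in limma). The first was 0.0138 without Suv39h DKO + UNC and the second 0.0127 without Suv39h WT + UNC. Between means of 3 bins the differences at the chromosome 14, Psat1 and Nat8f7 borders were 0.000471, -0.00728 and -0.00800.

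With the scores as deposited, the WT libraries of the 2 lines differed in median steepness without UNC0642 more than with it. The median of Suv39h WT differed from that of Setdb1 WT by -9.03%, and that of Suv39h WT + UNC from Setdb1 WT + UNC by 1.25%. Over the 7 other ways of processing these were -9.88% to -4.14% and -2.18% to 5.07%. After quantile normalization they were -4.14% without and 5.07% with UNC0642, so the order of their sizes turned. Limma called 8 of all pairs (0.0334%), 4 in each direction and 0 of them a fixed border, with 1650 (6.90%) at an unadjusted p under 0.05. These calls were lost (0 called) without Suv39h WT, without any 1 library of the Setdb1 line and with limma's trend and robust options, and 1 was called without Suv39h WT + UNC. Of the fixed borders 13 were steeper and 29 shallower in the Suv39h WT clone at that unadjusted limit, 11.0% of them. These counts were 14 and 17 after quantile normalization and 23 and 43 of 374 between means of 3 bins. With the trend and robust options they were 8 and 12, beside 1600 of all pairs. The median change over the fixed borders was -0.00137, or 4.74e-05 without Setdb1 WT and -0.00243 without Setdb1 WT + UNC. In both pairs 81 (21.2%, against 27.7%) were steeper and 127 (33.2%, against 24.4%) shallower in Suv39h WT. With all 4 libraries of each origin, 22 borders (5.76%, against 2.46% of all pairs) had every Setdb1-line value above every Suv39h-line value, and 10 (2.62%, against 2.85%) the reverse.

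The Dynlt1b border on chromosome 17 (edge 6400000), which lies among copies of a dynein light chain gene, was one that did not overlap. Untreated, its steepness was 0.0547 for Setdb1 WT, 0.0506 for Setdb1 KO, 0.0259 for Suv39h WT and 0.0303 for Suv39h DKO, and with UNC0642 it was 0.0487, 0.0678, 0.0243 and 0.0358. The WT difference was -0.0266 ± 0.00504, with an adjusted p of 0.250 in limma. Among fixed borders the lowest p was 0.000198 at chromosome 14, edge 7700000 (-0.0231 ± 0.00411, adjusted p = 0.202), between the predicted genes Gm26661 and Gm10128, where 51.5% of the A bin and 71.7% of the B bin were soft-masked as repeats. Both borders of the B bin chr6:114500001-114600000, beside the bin in which Atg7, an autophagy gene, starts, were 0.0926 against 0.0532 and 0.0840 against 0.0450 in Suv39h WT against Setdb1 WT, but with UNC0642 they were 0.0737 against 0.0706, and 0.0581 against 0.0579. Between means of 3 bins the WT differences were -0.0131 at the Dynlt1b border, -0.00558 at the chromosome 14 border, and 0.00697 and 0.00797 on either side of the chromosome 6 bin. That bin held no gene start, was 76.0% soft-masked and had a GC content of 57.6%. When the step was taken between means of 3 bins, limma called 67 pairs for this comparison, among them 1 fixed border, chosen here after its values were seen. It lay on chromosome 12 at the edge 24400000, beside Taf1b, a gene of the RNA polymerase I machinery, with a step larger by 0.0238 in Suv39h WT and an adjusted p of 0.0127 in limma. Between single bins its steepness was 0.0283 in Setdb1 WT and 0.0486 in Suv39h WT, but 0.0425 and 0.0409 with UNC0642.

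Fixed borders were spread over all 19 autosomes at intervals of several megabases. The 363 distances between neighbouring fixed borders had a median of 3300 kb, quartiles of 1000 and 7500 kb and a maximum of 40700 kb, on chromosome 5. For the borders of a single library the median was 400 to 500 kb. Short distances were present, with 24 at 100 kb and 64 (17.6%) at 500 kb or less, while 60 exceeded 10000 kb. Per 10 Mb there were between 0.957 fixed borders on chromosome 2 and 3.26 on chromosome 19. Within a library nearly all neighbouring borders alternated between A to B and B to A (99.7% to 99.8%), as successive sign changes must unless unscored bins lie between. Among neighbouring fixed borders 218 of 363 (60.1%) alternated and 145 did not.

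**Figure D4:**
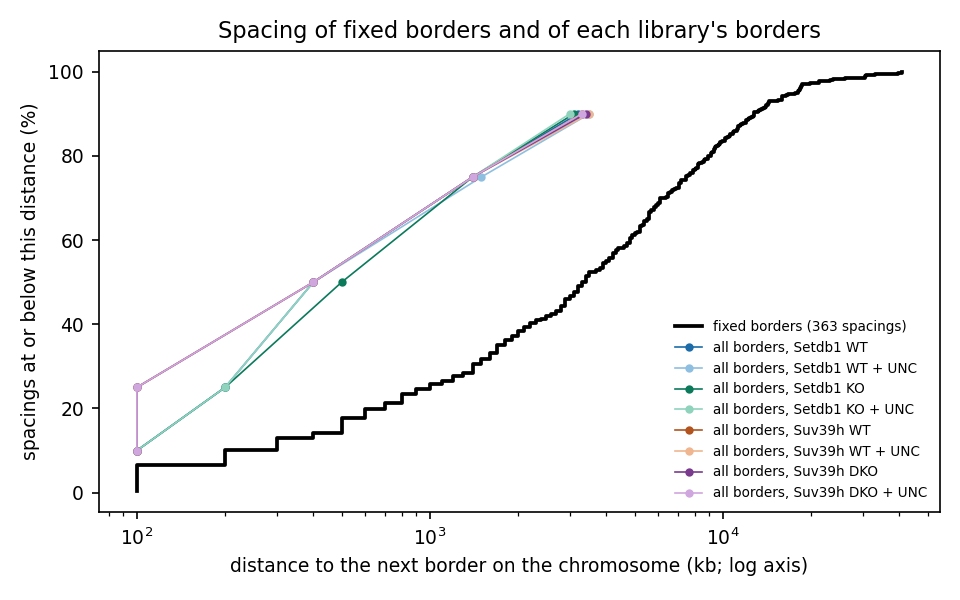
Cumulative share (%) of distances between neighbouring borders of a chromosome (kb, log axis) for the fixed borders as a black line and, as the 10th, 25th, 50th, 75th and 90th percentiles, for all borders of each of the 8 libraries. The fixed-border median is 3300 kb and the library medians are 400 or 500 kb.

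Where neighbouring fixed borders enclosed bins that kept 1 sign in all libraries, the block itself was fixed. With zero as deposited there were 53 such A blocks with a median length of 300 kb and 47 B blocks with a median of 1000 kb, covering 40.1 and 85.2 Mb. Blocks were not recomputed with zero placed elsewhere. The longest A blocks were chr7:97300001-102500000, from Usp35 to the olfactory receptor gene Olfr545 (94 gene starts), chr19:43400001-48000000, from Cnnm1 to Cfap58 (88), and chr6:85800001-89700000, from Nat8f6 to Txnrd3 (60). The longest B blocks were chr1:106800001-118300000, whose first gene was the serpin gene Serpinb5 (22 gene starts), chr5:53700001-63900000, with the protocadherin gene Pcdh7 (9), and chr16:78600001-84700000, with the neural adhesion gene Ncam2 (5). Gene starts per 100 kb had a median of 1.4 in the A blocks and 0.263 in the B blocks.

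Some fixed blocks were only 1 bin long, 16 in A and 8 in B. Single A bins included chr12:57500001-57600000 with Foxa1, a regulator of endoderm, chr14:104400001-104500000 with Pou4f1, a regulator of sensory neurons, chr16:45700001-45800000 with Tagln3 and Abhd10, and chr1:106700001-106800000 with Bcl2, Kdsr and Vps4b. Their mean scores were 0.00658, 0.00824, 0.0108 and 0.0110. The bin chr2:98600001-98700000, with the predicted genes Gm10801 and Gm10800, was 54.9% soft-masked. Of the single B bins, the one near Atg7 had the lowest mean score (-0.0430).

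**Figure D5:**
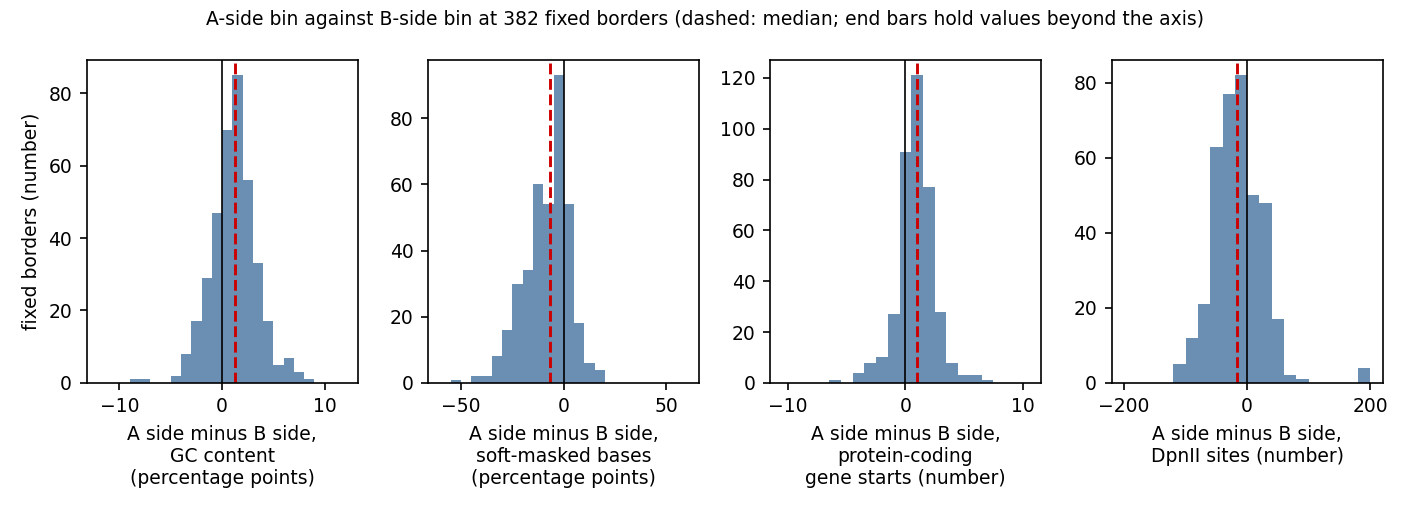
Histograms over the 382 fixed borders of the difference between the A-side and the B-side bin in GC content and soft-masked bases (percentage points), protein-coding gene starts and DpnII sites (numbers per 100-kb bin), with the median dashed. GC content is higher on the A side at 277 borders and gene starts at 241, and soft-masked bases and DpnII sites are higher on the B side at 300 and 260.

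Sequence and gene annotation, which the rule did not use, differed between the sides in most but not all borders. The A-side bin had the higher GC content at 277 of 382 borders, with a median difference of 1.22 percentage points, and medians of 42.8% on the A side and 41.5% on the B side. Both sides were intermediate, since bins that were A in all libraries had a median of 45.1% and bins that were B in all libraries 38.8%. CG dinucleotides were more frequent on the A side at 331 borders, with medians of 1008 and 760 per bin. Soft-masked repeats were more frequent on the B side at 300 borders, with medians of 36.8% on the B side and 28.9% on the A side. The B side also had more DpnII sites at 260 borders, with medians of 257 against 242 per bin, so the number of cut sites changes along with the score at these borders, and its part in the steps was not tested.

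Protein-coding genes started on the A side only at 174 borders, on the B side only at 22, on both sides at 133 and on neither at 53. The mean number of starts per bin was 1.63 on the A side, close to the 1.57 of all constantly A bins, and 0.741 on the B side, against 0.371 in constantly B bins. The nearest A-side gene was transcribed towards the border at 181 of 307 borders and away from it at 126, and the nearest B-side gene towards it at 77 and away at 78. No share over all bin edges is given for these directions, so they are counts only. A gene body crossed the border in 155 cases (40.6%), close to the 41.3% of all bin edges crossed. The 157 crossing genes had a median length of 74.9 kb, beside 70.8 kb for all genes that cross a bin edge, and 93 of them started on the A side, which holds more starts per bin. The longest were neural genes with a start on the B side for Cntnap2 (2245 kb) and on the A side for Dlg2 (1973 kb), which encode a neurexin-family protein and a postsynaptic scaffold. Steepness was only loosely related to these differences. Across the 382 borders, with no test since borders of a chromosome share a scale, Pearson's r with the A minus B difference was 0.0557 for GC content, 0.0487 for gene starts, -0.114 for soft-masked bases and 0.231 for DpnII sites. Spearman's rho, which extreme bins weigh on less, was 0.119, 0.0925, -0.0867 and 0.109 in the same order.

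Gene starts of several families were found beside fixed borders. Of 20713 protein-coding genes in scored bins, 587 started in an A-side bin and 272 in a B-side bin, 4.15% in all. Olfactory receptor genes (Olfr), which stem cells do not use, started 30 times on the B side and 4 times on the A side (3.01% of 1128). Vomeronasal receptor genes were on the B side in 8 of 8 cases for Vmn1r and 6 of 7 for Vmn2r. Zinc finger genes named Zfp started on the A side in 17 of 22 cases (5.74% of 383). Most genes of the Olfr and Vmn families lay in bins that were B in all libraries (934 of 1128 Olfr, 137 of 199 Vmn1r and 104 of 119 Vmn2r), and most Zfp genes in A bins (294 of 383), so the side at the borders was mostly the side of the family as a whole. Family members lie in tandem and share borders, so their starts are not independent. At chr7:102400001-102600000 a border ran through an olfactory receptor cluster, with Olfr543, Olfr544 and Olfr545 on the A side and Olfr547 to Olfr552 on the B side. No start of the 54 Hist1, 39 Hox, 113 Krt and 67 Pcdh genes scored was in a fixed-border bin, and of 76 ribosomal protein genes 1 was, on the B side. None of the 11 genes of the H3K9 methyltransferases and HP1 proteins in scored bins was at a fixed border, and all 11 were in constantly A bins.

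Of the 15 pluripotency genes, Zfp42 (Rex1), a widely used marker of naive stem cells, started in a fixed-border bin. It lay 93.0 kb inside the A side of a border on chromosome 8 (edge 43400000), whose untreated steepness was 0.0313 for Setdb1 WT, 0.0346 for Setdb1 KO, 0.0306 for Suv39h WT and 0.0347 for Suv39h DKO, while with UNC0642 it was 0.0201, 0.0359, 0.0270 and 0.0281. Setdb1 WT + UNC was the lowest here, and the Zfp42 bin itself scored 0.00140 in that library and 0.00526 to 0.0172 in the others. Nanog, a core factor of the pluripotency network, started 193 kb from a border on chromosome 6 (edge 122900000) with a steepness of 0.0292 ± 0.00292 over the 8 libraries, and its own bin scored 0.0288 to 0.0394. Of the 14 lineage regulators in scored bins, Tal1, a regulator of blood formation, was the closest to a fixed border, 43.6 kb inside the A side on chromosome 4 (edge 115100000, 0.0181 ± 0.00269). Foxa2, a regulator of endoderm, was in a bin that was B in all libraries and 947 kb from the nearest fixed border.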

How the data were processed

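Hi-C was made with DpnII from mouse embryonic stem cells, and 8 libraries, 1 for each group, were used. Per the study's methods the authors aligned reads to mm10 with the 4DN Hi-C pipeline, kept reads above a mapping quality limit, built contact maps with Juicer Tools and deposited, for each 100-kb autosomal bin, the first eigenvector of the normalized map as a compartment score. The deposited score files give no counts, so no depth or counting interval was computed, and read numbers listed elsewhere were not used here. Every library was used as deposited, and 33 of 24005 bins not scored in all libraries were left out. Fixed borders are neighbouring bins of opposite sign in the same order in all 8 libraries. The step (second bin minus first) of all 23920 neighbouring pairs was fitted in limma 3.58.1 (R 4.3.3) with a term for each background and one for UNC0642 (3 residual degrees of freedom, prior 7.30). Contrasts were UNC0642, SETDB1 loss, SUV39H1/2 loss and Suv39h WT against Setdb1 WT, with Benjamini-Hochberg adjustment over all pairs. The fit was also run on simulated steps, but the outcome is not given here, so the size of change it could detect is not stated. Since the last 3 contrasts use the libraries of a background with and without UNC0642 as if they were repeats, their p-values measure only that spread. Genes are the 20807 autosomal protein-coding genes of GENCODE vM21, a border's genes being the nearest start on each side within the 2 bins, and soft-masked bases are those in lower case in the GRCm38.p6 sequence. Members, gene lists and tests were chosen with earlier results of these data known. Borders named are the 5 steepest and 3 shallowest, the 2 largest increases and decreases in each contrast among borders that moved one way in every library pair, the longest and shortest fixed blocks, and borders within 200 kb of listed pluripotency and lineage genes. Alternatives covered the placement of zero, 2 normalizations, limits on score and flank, the step between means of 3 bins, limma's options and leaving out each library.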

Additional observations from a re-analysis of the deposited data

Results flagged for a closer look

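At the end of chromosome 18 (edge 90600000), Setdb1 WT + UNC had a steepness of 0.0845, while the other 3 libraries of the Setdb1 line had 0.114 to 0.119. At chromosome 14, edge 7700000, Suv39h WT had a steepness of 0.0300, below the other 3 untreated libraries at 0.0439 to 0.0462. These were the 2 values that stood apart among 84 sets of 4 libraries looked at, and chance sets apart about 1 in 20 sets. With UNC0642 the median steepness differed by -7.34% (Setdb1 WT) and 5.11% (Setdb1 KO), and with SETDB1 loss by -2.65% without and 10.4% with UNC0642, which is the same interaction of 4 libraries seen from both sides. For members with absolute scores of at least 0.005, the 10.4% became 0.669% and the 5.11% became -0.175%. The difference between lines was -9.03% without and 1.25% with UNC0642. None of these differences of differences was tested, each resting on 1 library per group. Setdb1 KO and Setdb1 KO + UNC also differ in days of 4-OHT.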

How the results depend on the processing

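With both bins at an absolute score of at least 0.005 in every library, 115 borders were fixed with a median spacing of 7900 kb, and with at least 3 bins of 1 sign on each side 162, with 7200 kb. Leaving out 1 library at a time gave 396 to 420 borders, a spacing of 3100 to 3300 kb and 60.3% to 62.4% alternating. Median steepness between means of 3 bins was 0.0284 for Setdb1 WT, 0.0267 for Setdb1 KO, 0.0260 for Suv39h WT and 0.0256 for Suv39h DKO untreated, and 0.0257, 0.0278, 0.0257 and 0.0252 with UNC0642. For members above the 0.005 limit, in that order, it was 0.0371, 0.0346, 0.0342 and 0.0332 untreated, and 0.0343, 0.0345, 0.0340 and 0.0337 with UNC0642. With members chosen after the implied mean was added, Setdb1 KO had 0.0237. Without the 11 borders beside unscored bins or assembly gaps, an alternative chosen after seeing the data, medians were 0.0231 to 0.0264. The 8 pairs called between the WT lines became 5 after quantile normalization, 67 with means of 3 bins (1 of them a fixed border), 0 with limma's trend and robust options, and 0 to 5 without 1 library. Leaving out Suv39h WT or any library of the Setdb1 line gave 0, leaving out Suv39h WT + UNC gave 1, and leaving out Suv39h DKO or Suv39h DKO + UNC gave 5. In the other 3 comparisons, every alternative run called 0 pairs and 0 fixed borders (lowest and highest without 1 library 0 and 0). The change with SETDB1 loss at the end of chromosome 18 was 0.0176 ± 0.00826 with all libraries. It was -0.00167 without Setdb1 WT + UNC, the opposite sign, and at most 0.0368 without any other library. At chromosome 2, edge 147000000, steepness between means of 3 bins was 0.00204. The causes were not tested. Differences between the sides in GC content, gene starts and DpnII sites kept their direction with the 0.005 limit and with zero moved either way. By replicate number, no paired analysis was possible because each group holds 1 library numbered 1, while UNC0642 was compared in pairs within the 4 backgrounds. The number of libraries and the bin size limit these results, as a shift of a border by less than 100 kb cannot be seen.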
